A study of Mus musculus with 4 samples.

Results

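Phox2a, Th, Dbh, Hand2, Tubb3, Stmn2 and Sox10 are markers of sympathetic neurons and of the glia that accompany them. They were picked by symbol, and they are 7 of the 40999 features counted in every library. Embryonic gonads of wild-type C57BL/6J mice, untreated, were profiled by stranded total RNA sequencing after rRNA depletion, with 1 library for each day from E11.5 to E14.5. Each library was made from pooled gonads of mixed XX and XY genotype from more than one litter, so the sexes cannot be separated. The E11.5 pool held whole genital ridges with the mesonephros, and the later pools held gonads without it.

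Sympathetic neurons and chromaffin cells descend from the neural crest. Transcription factors such as Phox2a and Hand2 direct their differentiation, after which tyrosine hydroxylase and dopamine β-hydroxylase make noradrenaline, while Schwann cell precursors that depend on Sox10 follow the nerves. Sympathetic ganglia and the adrenal primordium lie beside the genital ridge, and Sox10 is also transcribed in fetal Sertoli cells of the testis.

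From E11.5 to E14.5, the libraries held 31266481, 25593453, 31752562 and 31526303 counts. Counts stand for reads left after the authors removed duplicates by molecular identifier, and TPM is the deposited value, scaled for gene length and library size. The 18S rRNA gene Rn18s-rs5 took 9.06%, 1.31%, 1.03% and 40.7% of them, which by itself lowers the TPM of other genes at E14.5. Ratios between libraries were therefore scaled by TMM, a trimmed mean that sets the typical gene at no change. With total counts in its place, the median gene would move by 0.16 on the log2 scale in E12.5 versus E11.5, by −1.08 in E14.5 versus E13.5 and by −1.05 in E14.5 versus E12.5. With TPM it would move by 0.28, −1.63 and −1.5 in the same comparisons and by 0.13 in E13.5 versus E12.5.

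With 1 library per time point there is no replicate check and no p-value. Each comparison is between libraries, not between developmental stages, and the intervals (exact Poisson for a level, exact Clopper-Pearson for a ratio, all at 95%) cover counting error only. A gene was called changed when its scaled ratio was at least 2-fold and its interval excluded no change. In these bulk samples, fewer cells of a type and less RNA per cell cannot be told apart.

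Of the 7 genes, 6 were down-regulated in E12.5 versus E11.5, and Sox10 alone was not. All 7 passed the filter on low counts in this comparison, in which 8.29% of the 19215 genes kept were called lower and 7.92% higher. The log2 ratios of the 7 ranged from −6.53 for Dbh to 0.98 for Sox10, with a median of −2.32 beside a median of 0 over all genes kept. A low count in the later library passes this filter when the earlier count is high, so the count of 6 includes genes that could enter only through E11.5.

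Later comparisons called few of them. In E13.5 versus E12.5, Phox2a and Tubb3 were up-regulated and none was lower among the 5 that passed the filter, while 2.53% of 19152 genes were called higher and 1.37% lower. For E14.5 versus E13.5, 0 of the 6 that passed were called in either direction, beside 5.89% of 18992 genes called higher and 1.44% lower. The comparison of E14.5 versus E12.5 is between gonads dissected in the same way. There 4 passed, of which Tubb3 was up-regulated and Stmn2 down-regulated, beside 7.96% of 18704 genes called higher and 2.38% lower. The comparisons share libraries, so their calls are not separate observations.

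**Figure D1:**
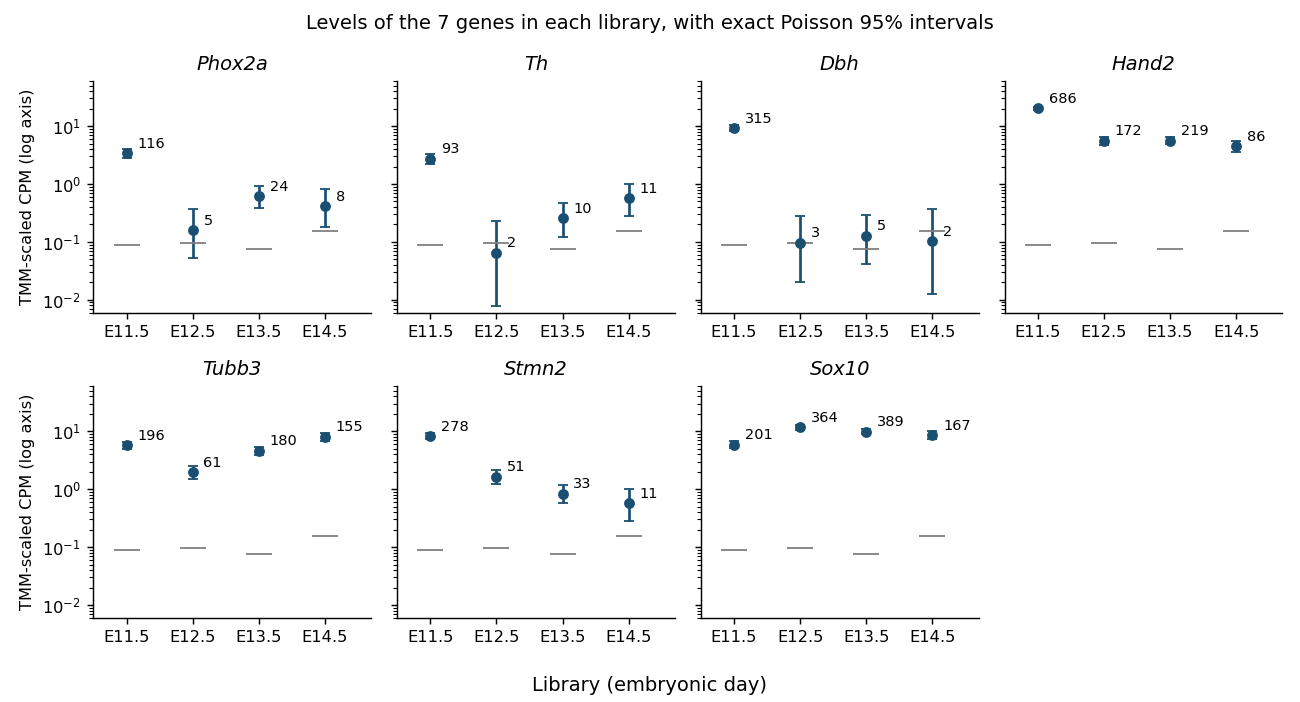
TMM-scaled CPM (counts divided by library size) on a log axis for each of the 7 genes, by library. Points are single libraries labelled with their raw counts, bars are exact Poisson 95% intervals, and grey dashes mark the level of 3 counts. Dbh falls from 315 counts at E11.5 to between 2 and 5 afterwards, whereas Sox10 is lowest at E11.5.

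Phox2a encodes a paired-like homeodomain factor of noradrenergic neurons. It had 116 counts (3.25 TPM) at E11.5, 5 (0.186 TPM) at E12.5, 24 (0.776 TPM) at E13.5 and 8 (0.177 TPM) at E14.5. Its level was therefore high in the library with mesonephros and low in the other libraries. The log2 ratio was −4.38 (−6.06 to −3.14) in E12.5 versus E11.5, a 20.8-fold difference. It was 1.9 (0.51 to 3.67) in E13.5 versus E12.5, and on TMM-scaled counts E13.5 reached 17.9% of the E11.5 level. Its ratio for E14.5 versus E13.5 was −0.49 with an interval of −1.86 to 0.71, so no difference was detectable on TMM at this depth. On TPM, where the median gene moves by −1.63, Phox2a was lower at E14.5 (0.0764 to 0.349) than at E13.5 (0.497 to 1.15).

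Hand2 encodes a basic helix-loop-helix factor that acts in sympathetic precursors and also in limb, heart and gut mesenchyme. It had 686 counts (13.8 TPM) at E11.5, 172 (4.61 TPM) at E12.5, 219 (5.1 TPM) at E13.5 and 86 (1.37 TPM) at E14.5. E11.5 was again the highest, but Hand2 did not approach the floor afterwards, as Dbh and Th did. Its log2 ratio was −1.87 (−2.12 to −1.62) in E12.5 versus E11.5. The value was 0.01 (−0.28 to 0.31) in E13.5 versus E12.5 and −0.26 (−0.64 to 0.11) in E14.5 versus E13.5. The fall in TPM at E14.5 is thus close to that of the median gene.

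The list of sympathoadrenal transcription factors holds 10 genes, Phox2a and Hand2 among them, and 10 of 10 were down-regulated on TMM in E12.5 versus E11.5, with a median log2 ratio of −3.7. Isl1, a LIM homeodomain factor of differentiating neurons, went from 299 counts to 19 (−3.84) and was at 0.443 TPM in E12.5. The zinc finger factor Insm1 fell by 3.57 on the log2 scale, from 222 counts to 17, and the haematopoietic and neural factors Gata2 and Gata3 by 2.59 and 3.55. Hand1 moved by −4.39. Sox11, the most abundant gene of the list at 108 TPM in E11.5, moved least. Its ratio of −1.11 became −0.95 with total counts and −0.83 with TPM, which do not pass the rule.

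Between E12.5 and E13.5 the same list had 3 of 8 kept genes called higher, Phox2a, Hand1 and Insm1, and 0 lower. Insm1 went from 17 counts to 52 (1.27, interval 0.46 to 2.16). Isl1 did not share this rise, with 19 and 18 counts. Between E13.5 and E14.5, 0 of 8 were called higher and 2 lower, Hand1 and Isl1, both at 2 counts at E14.5. For Isl1 the interval of −5.23 to −0.02 nearly reached no change. Isl1 was also the single call of 6 kept genes in E14.5 versus E12.5, where it was lower.

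Th encodes tyrosine hydroxylase, the rate-limiting enzyme of catecholamine synthesis. It had 93 counts (1.83 TPM) at E11.5, 2 (0.0523 TPM) at E12.5, 10 (0.227 TPM) at E13.5 and 11 (0.171 TPM) at E14.5. The E11.5 interval of 75.1 to 114 counts lay far above the 3 others, the highest of which ended at 19.7 counts. The log2 ratio in E12.5 versus E11.5 was −5.33, with an interval of −8.48 to −3.52 because the later library held 2 counts.

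From E12.5 onwards Th was too sparse for most calls. In E14.5 versus E12.5 its log2 ratio was 3.11 (1.01 to 6.42), an interval that excludes no change, but with 2 and 11 counts it did not pass the filter. The value for E13.5 versus E12.5 was 1.93 (−0.25 to 5.22). For E14.5 versus E13.5 it was 1.21 (−0.15 to 2.62) and turned to −0.39 on TPM. Scaled to TMM, Th at E14.5 stood at 20.8% of its E11.5 level.

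Dbh encodes dopamine β-hydroxylase, which converts dopamine to noradrenaline. It had 315 counts (6.22 TPM) at E11.5, 3 (0.0788 TPM) at E12.5, 5 (0.114 TPM) at E13.5 and 2 (0.0312 TPM) at E14.5. Among the 7 genes it had the largest ratio in E12.5 versus E11.5, −6.53 (−8.87 to −5.03), or 92.4-fold. The 3 later libraries did not differ from each other beyond counting error, with 0.39 (−1.96 to 3.09) in E13.5 versus E12.5 and −0.22 (−3.62 to 2.38) in E14.5 versus E13.5.

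The list of catecholamine synthesis, storage and uptake holds 11 genes, of which 10 passed the filter in E12.5 versus E11.5. In that comparison 5 were lower and 0 higher, with a median of −0.7. Besides Th and Dbh, the lower genes were Ddc, the aromatic amino acid decarboxylase, and the vesicular monoamine transporters Slc18a1 and Slc18a2. Ddc moved by −1.39, from 132 counts to 46. Slc18a1 moved by −2.08, from 134 to 29, and Slc18a2 by −1.6, from 199 to 60. These 3 moved less than Th and Dbh did, and Slc18a2 was lower again in E14.5 versus E12.5 (60 to 10 counts, −1.83). No gene of this list was called in E13.5 versus E12.5 or in E14.5 versus E13.5, with 8 genes kept in each and medians of 0.04 and −0.05. Slc18a2 was the single call among 8 in E14.5 versus E12.5, with a median of −0.12.

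Neurosecretory granule and peptide genes were sparse, with 4 of 8 kept in E12.5 versus E11.5, of which 3 were lower and 0 higher. The chromogranin Chga went from 84 counts to 20 (−1.94) and Chgb from 94 to 6 (−3.82). Scg2 and Cartpt had 0 counts at E12.5 and at E14.5, which is compatible with up to 3 counts. Npy, a peptide of sympathetic neurons and other cells, took another course. It had 15, 10, 99 and 99 counts from E11.5 to E14.5, and rose by a log2 ratio of 2.96 (2.03 to 4.07) in E13.5 versus E12.5 while Dbh stayed at 5 counts or fewer. Its ratio in E14.5 versus E13.5 was 1.09, which turned to −0.55 on TPM, and in E14.5 versus E12.5 it was 4.03. Npy was the only gene of this list called in these 3 comparisons, of 3, 2 and 2 genes kept.

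**Figure D2:**
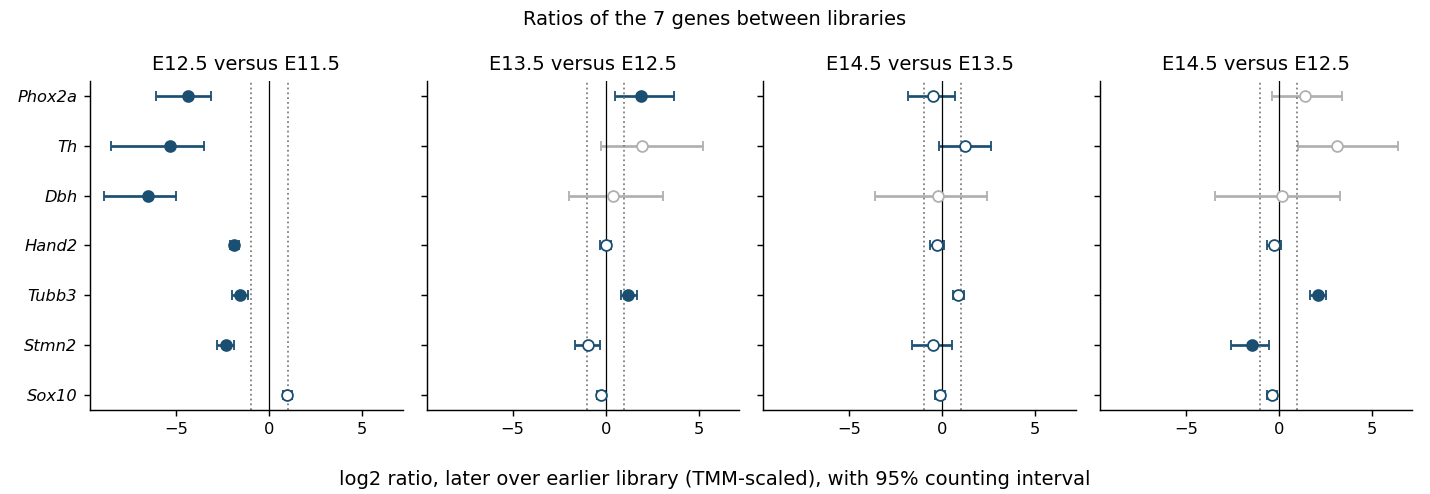
Log2 ratio of the later over the earlier library, TMM-scaled, for the 7 genes in 4 comparisons, with exact 95% counting intervals. Filled points passed the 2-fold rule, open points did not, grey points did not pass the filter on low counts, and dotted lines mark a log2 ratio of 1 in each direction. The leftmost panel holds 6 filled points below 0, and E14.5 versus E13.5 holds none.

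Tubb3 encodes the β-tubulin of neurons. It had 196 counts (5.12 TPM) at E11.5, 61 (2.12 TPM) at E12.5, 180 (5.43 TPM) at E13.5 and 155 (3.2 TPM) at E14.5. The lowest library was E12.5, and the other 3 exceeded it. Its log2 ratio was −1.55 (−2 to −1.13) in E12.5 versus E11.5 and 1.22 (0.8 to 1.67) in E13.5 versus E12.5. For E14.5 versus E12.5 it was 2.09 (1.66 to 2.55), and 1.04 with total counts or 0.59 with TPM. For E14.5 versus E13.5 it was 0.87 (0.55 to 1.19), and −0.21 and −0.76 on those scales. The recovery of Tubb3 at E13.5 thus held on each scale, and its course after E13.5 depended on the scaling.

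Stmn2 encodes a stathmin that regulates microtubules in growing axons. It had 278 counts (6.58 TPM) at E11.5, 51 (1.61 TPM) at E12.5, 33 (0.902 TPM) at E13.5 and 11 (0.206 TPM) at E14.5. E11.5 was the highest library, and the values decline from day to day, the last step within counting error on TMM. On TPM that step exceeds counting error, from 0.621 to 1.27 at E13.5 to 0.103 to 0.368 at E14.5. The median gene moves by −1.63 on that scale. The log2 ratio was −2.32 (−2.78 to −1.88) in E12.5 versus E11.5 and −1.46 (−2.55 to −0.51) in E14.5 versus E12.5. In E13.5 versus E12.5 it was −0.96 (−1.64 to −0.31), an interval that excludes no change while the ratio falls just short of 2-fold. The value for E14.5 versus E13.5 was −0.49 (−1.63 to 0.53).

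The pan-neuronal cytoskeleton and RNA-binding list holds 16 genes, and 10 were lower and 2 higher in E12.5 versus E11.5, with a median of −2.19. The neurofilament Nefm, its most abundant gene at E11.5 with 14.9 TPM, went from 1066 counts to 44 (−4.47). Nefl went from 384 to 15 (−4.54). Doublecortin, Dcx, a microtubule protein of migrating neurons, went from 519 to 28 (−4.08). The growth cone gene Gap43 followed Stmn2, with 385, 78, 43 and 10 counts from E11.5 to E14.5 and a further call in E13.5 versus E12.5 (−1.19). The neuronal RNA-binding genes Elavl3 and Elavl4 moved by −2.63 and −2.2.

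The exceptions in this list were also neurofilament genes. Nefh, the heavy subunit, had 9, 67, 120 and 80 counts from E11.5 to E14.5, with a log2 ratio of 3.01 (2.01 to 4.21) in E12.5 versus E11.5. Ina went from 40 counts to 105 (1.52, interval 0.98 to 2.08). Map2, at 7.47 TPM the most abundant gene of the list at E12.5, had a ratio of 0.86 and was not called, but at 1.02 with total counts and 1.15 with TPM it passes the rule. The summed TPM of the list was 62.1, 22.8, 23 and 9.29 from E11.5 to E14.5, and Stmn3 was at 0 at E14.5.

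In E13.5 versus E12.5, Tubb3 was the only gene of this list called higher and Gap43 the only one called lower among 14 kept, with a median of −0.7. Nefm (1.13) and Elavl3 (1.49) were called higher and 0 lower among 12 in E14.5 versus E13.5, with a median of 0.48, and they turned to −0.49 and −0.12 on TPM. For E14.5 versus E12.5, Tubb3, Nefh (1) and Mapt (1.05) were higher and Stmn2 and Gap43 lower among 14. Nefh turned to −0.04 with total counts and −0.49 with TPM, and Mapt to −0.44 with TPM.

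Of the genes of synaptic vesicles, 2 of 10 were lower and 0 higher in E12.5 versus E11.5, beside 8.29% of all genes called lower, with a median of −0.44. Snap25 went from 59 counts to 6 (−3.14) and the calcium sensor Syt1 from 123 to 49 (−1.2, or −0.9 on TPM). Syn1 was at 0.95, but at 1.11 with total counts and 1.22 with TPM, which pass the rule. Vamp2, the most abundant at 22.1 TPM in E11.5, had a ratio of −0.05. Syn2 was the only one of 9 called in E13.5 versus E12.5 (32 to 106 counts, 1.39), where Syt1 was at 0.89 and at 1.01 on TPM, and Syn1 the only one of 9 in E14.5 versus E13.5 (145 to 144 counts, 1.08, or −0.55 on TPM). In E14.5 versus E12.5, Syt1 (1.87), Syn1 (1.67) and Syn2 (2.37) were higher, as Tubb3 was, but these became 0.37, 0.17 and 0.86 on TPM and no longer passed the rule.

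**Figure D3:**
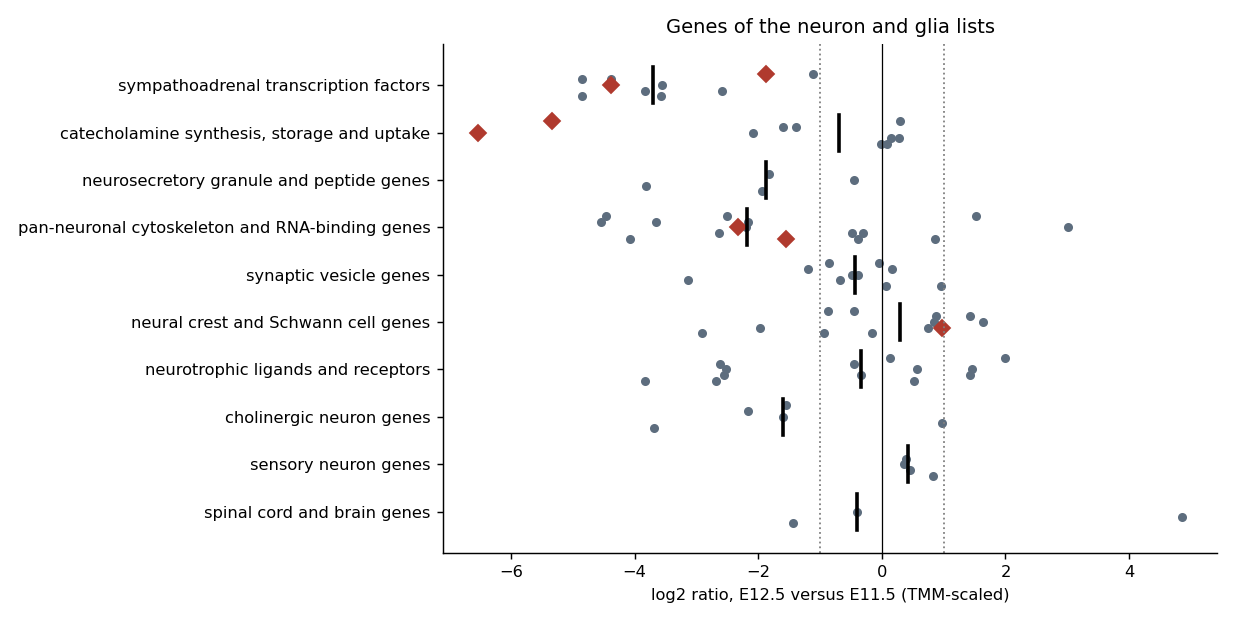
Log2 ratio in E12.5 versus E11.5, TMM-scaled, of every gene of the 10 neuron and glia lists that passed the filter on low counts. Red diamonds are the 7 genes described, grey points the other genes, black bars the median of each list and dotted lines a log2 ratio of 1 in each direction. The median is −3.7 for the transcription factors and 0.3 for the neural crest and Schwann cell genes.

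Sox10 encodes the high-mobility-group factor of the neural crest and of glia. It had 201 counts (3.26 TPM) at E11.5, 364 (7.87 TPM) at E12.5, 389 (7.29 TPM) at E13.5 and 167 (2.14 TPM) at E14.5. On TMM-scaled counts E11.5 was the lowest library, at 50.2% of E12.5, the highest, and E13.5 and E14.5 lay between. The log2 ratio in E12.5 versus E11.5 was 0.98 (0.73 to 1.24), just under the rule, and 1.15 with total counts or 1.27 with TPM, which pass it. Later ratios were −0.24 (−0.45 to −0.03) in E13.5 versus E12.5 and −0.13 (−0.4 to 0.14) in E14.5 versus E13.5, the last of which becomes −1.21 with total counts and −1.76 with TPM. Sox10 therefore moved opposite to the other 6 genes in E12.5 versus E11.5.

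The neural crest and Schwann cell list holds 14 genes with Sox10, of which 12 passed the filter in E12.5 versus E11.5. In that comparison 2 were higher and 2 lower on TMM, with a median of 0.3, beside 7.92% of all genes called higher and 8.29% lower. Counts this small are not read as a result about the list. Ngfr, the low-affinity neurotrophin receptor, went from 1025 counts to 2531 (1.43). Egr2, a transcription factor of myelinating Schwann cells and other lineages, went from 645 to 1835 (1.64). The crest factor Foxd3 was lower, with 42 counts and then 5 (−2.91), as was the endothelin receptor Ednrb, with 925 and 215 (−1.98). Erbb3, the neuregulin receptor that Schwann cell precursors need, had 369 counts at E11.5 and 619 at E12.5, a ratio of 0.87 (0.69 to 1.06), which became 1.03 with total counts and 1.16 with TPM. On TPM, Sox10, Erbb3 and Mbp (2.44 to 5.01 TPM) thus rose at least 2-fold as well, so the even split does not hold with total counts or TPM.

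Cdh19, a cadherin of Schwann cell precursors, was sparse in every library, with 44, 21, 22 and 9 counts from E11.5 to E14.5, values chosen after they were seen. No gene of the list was called in E13.5 versus E12.5 among 13 kept, with a median of −0.02. Foxd3 and S100b were called higher in E14.5 versus E13.5 among 14, with 14 and 16 counts at E14.5, but on TPM Foxd3 went from 0.132 to 0.21 and S100b from 0.47 to 0.343, short of the rule and turned. They were also called in E14.5 versus E12.5, with 0.126 and 0.181 TPM at E12.5, a rise of less than 2-fold on that scale, and Erbb3 (−1.1) was lower. The summed TPM was 50.5, 107, 137 and 36.1 from E11.5 to E14.5.

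Sertoli cell genes moved in the same direction as Sox10. Of 4 genes in that list, 3 were higher and 0 lower in E12.5 versus E11.5, with a median of 3.1, and Sox9 was at 0.76, or 1.04 on TPM. Their summed TPM was 37, 385, 366 and 132 from E11.5 to E14.5, led by Sox9 at E11.5 (30 TPM) and by Amh from E12.5 on (274 TPM there). No gene of the list was at 0, and 0 of 4 were called in each later comparison. Dhh, a Hedgehog ligand made by Sertoli and Schwann cells, went from 63 counts to 1707 (4.89). The part of Sertoli cells in the Sox10 level was not tested.

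Receptors and ligands of the neurotrophin and GDNF families included calls in both directions. Of 14 genes, 13 passed the filter in E12.5 versus E11.5, with 5 lower, 3 higher, 5 not called and a median of −0.33. Over all genes kept, 8.29% were lower and 7.92% higher. The neurotrophin receptors Ntrk2 and Ntrk3 moved by −3.84 (2037 counts to 130) and −2.55 (575 to 90). The GDNF-family receptors Ret, Gfra1 and Gfra3 moved by −2.52, −2.62 and −2.69, and Gfra3, the artemin co-receptor, was the most abundant gene of the list at E11.5 with 14.4 TPM. Gfra2 (172 to 630 counts, 2) and the ligand Gdnf (388 to 980 counts, 1.46) were higher together with Ngfr.

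After E12.5 this list had 1 call in E13.5 versus E12.5, Gfra1 (−1.78), with a median of 0.12 over 14 genes. Of the 14 in E14.5 versus E13.5, 3 were higher, among them Ntrk2 (1.62) and Ntrk3 (1.59), which turned to −0.01 and −0.04 on TPM, and Gfra3 (−1.53) was lower. In the comparison of E14.5 versus E12.5, 3 were higher, among them Ntrk3 (1.99, or 0.94 with total counts and 0.48 with TPM), and Gfra3 (−2.27) was lower.

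Of the cholinergic genes, 4 of 5 kept were lower in E12.5 versus E11.5, with a median of −1.6. The ganglionic nicotinic receptor subunit Chrna3 went from 72 counts to 5 (−3.69) and Chrnb4 from 90 to 27 (−1.6). Chrna7, the most abundant at 2.31 TPM in E11.5, had a ratio of 0.98 and was not called, but at 1.14 with total counts and 1.26 with TPM it passes the rule. Chat had 0 counts at E14.5. In the later 3 comparisons 0 of 3 kept genes were called in each.

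Of the sensory neuron list, 8 genes were found and 4 passed the filter in E12.5 versus E11.5, with 0 called on TMM and a median of 0.43. Isl2 was at 0.83, or 1.1 on TPM, which passes the rule. Runx1, which is also a blood cell factor, was its most abundant gene at 7.89 TPM in E11.5, and Neurod1 was at 0 at E12.5 and Neurog2 at E13.5. In this list 0 of 4 were called in E13.5 versus E12.5, and Isl2 was lower (128 to 22 counts, −1.45) in E14.5 versus E13.5. Isl2 (−1.6) was also lower and Pou4f1 (1.09, or −0.41 on TPM) higher in E14.5 versus E12.5. The spinal cord and brain list had 3 of 9 genes kept in E12.5 versus E11.5, with 1 higher, 1 lower and a median of −0.41. Its summed TPM stayed between 0.867 and 2.08, Nkx6-1 led at E11.5 with 0.598 TPM, and Olig2 and Lhx3 were at 0 at E11.5, as En1 was at E13.5. Pax6 in this list went from 3 counts to 83 (4.86, interval 3.32 to 7.22), then 81 and 10 (−1.92 in E14.5 versus E13.5 and −2.29 in E14.5 versus E12.5). Nkx6-1 was lower in E12.5 versus E11.5 and higher in both E14.5 comparisons, with 24, 8, 11 and 18 counts, although on TPM (0.265, 0.316 and 0.354 from E12.5 on) those rises were below 2-fold.

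Over all 10 neuron and glia lists, 105 genes were found and 86 passed the filter in E12.5 versus E11.5, of which 42 were lower and 7 higher, with a median of −0.9. Without the 7 genes described, it was 36 lower and 7 higher of 79, with a median of −0.68. Over all genes kept, 8.29% were lower and 7.92% higher. Sparse genes among the 79 could pass the filter only through E11.5, and the lists were chosen with earlier results known. In E13.5 versus E12.5 it was 2 lower and 4 higher of 73, beside 1.37% and 2.53% of all genes. In E14.5 versus E13.5 it was 5 lower and 10 higher of 71, beside 1.44% and 5.89%. The medians of those comparisons were 0.04 and 0.07. For E14.5 versus E12.5 it was 7 lower and 13 higher of 73, with a median of 0.04, beside 2.38% and 7.96% of all genes.

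Some markers of tissue that was taken along only at E11.5 moved with the neuronal genes. Of 9 mesonephric and nephric genes, 5 were lower and 0 higher in E12.5 versus E11.5, with a median of −3.37. Their summed TPM was 271, 239, 228 and 55.8 from E11.5 to E14.5, most of it from Wt1, which the gonad itself expresses and which had 156 TPM at E11.5. The nephric regulator Pax2 went from 1531 counts to 60 (−4.54), Wnt9b of the nephric duct from 575 to 10 (−5.7) and Six2 of nephron progenitors from 1004 to 10 (−6.5). Others did not follow, with Pax8 at −0.82, Emx2 at −0.01 and Lhx1 at 0.64 (209 to 299 counts). No gene of the list was at 0 in any library, and the later comparisons called 1 of 8 lower, 1 of 8 higher and, in E14.5 versus E12.5, 0 of 9. Its Gata3 is also in the sympathoadrenal list.

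Splanchnic and limb mesenchyme genes moved likewise, with 7 of 9 kept genes lower and 1 higher, Tbx4, in E12.5 versus E11.5 and a median of −2.48. Their summed TPM was 70.6, 26.6, 27.8 and 11.7 from E11.5 to E14.5. Prrx1 was the most abundant at E11.5 with 16.9 TPM, and Nkx3-2 was at 0 at E14.5. Later comparisons called 1 of 7 higher, then 2 higher and 2 lower of 7, and in E14.5 versus E12.5 2 higher and 1 lower of 6. The higher pair in each E14.5 comparison, Foxf1 and Osr1, had 2.32 and 3.31 TPM at E12.5, 2.34 and 4.45 at E13.5 and 2.47 and 2.92 at E14.5, so those calls end on TPM and Osr1 turns, as it does with total counts in E14.5 versus E13.5. Hand1 and Hand2 are in this list as well as in the sympathoadrenal one. The part of the mesonephros and of adjoining mesenchyme in the fall of the 6 genes other than Sox10 was not tested. In E12.5 versus E11.5 dissection and age cannot be told apart.

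Of the adrenal cortex genes, 0 of 3 kept were called in E12.5 versus E11.5, with a median of 0.37. Mc2r went from 145 counts to 79 (−0.75, interval −1.16 to −0.34), and Cyp21a1 (8 and 1 counts) and Cyp11b1 (5 and 1 counts) did not pass the filter. Their summed TPM was 12.6, 16.8, 19.3 and 8.62 from E11.5 to E14.5, led by Nr0b1 at 7.93 TPM in E11.5, which the gonad expresses too, and none was at 0. Cyp11b1 and Cyp21a1 were called higher in each later comparison, among 5 kept, but from E13.5 to E14.5 their TPM went from 1.74 to 2.18 and from 1.22 to 1.2, which ends those calls. Akr1b7 was called higher in E14.5 versus E12.5 at 1.68 TPM in both libraries. Endothelial genes, from tissue that all the libraries contain, had 0 of 5 called in each of the 4 comparisons on TMM. With 1.37% to 8.29% of all genes called per direction, 0 of 5 is a weak check. On TPM all 5 endothelial genes fell more than 2-fold in both E14.5 comparisons. They summed to 113, 138, 116 and 35.2 TPM from E11.5 to E14.5, led by Cdh5 at 40.3 TPM in E11.5.

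Markers of the gonad were present in every library with 1 exception. Germ cell genes summed to 27.2, 254, 327 and 85.4 TPM from E11.5 to E14.5, led by Kit at E11.5 (15.3 TPM), and 4 of 5 were higher and 0 lower in E12.5 versus E11.5, with a median of 3.45 and no call afterwards. Fetal Leydig cell genes summed to 8.64, 151, 720 and 391 TPM, led by Cyp11a1 at E11.5 (5.92 TPM), and 5 of 5 were higher, with a median of 5.87, or 4.1 with Insl3 at its bound. All 5 were higher again in E13.5 versus E12.5, and likewise in E14.5 versus E12.5, with 0 called in E14.5 versus E13.5. On TPM, Hsd3b1 (48.4 to 64.7) and Star (15 to 22) rose by less than 2-fold in E14.5 versus E12.5, which ends those calls. Insl3 of that list had 0 counts at E11.5 and 47 at E12.5, at least 17.1-fold higher when the 0 is set to the floor of 3 counts, with a lower counting limit of 3.74 on the log2 scale. Pregranulosa genes summed to 59.1, 90.6, 127 and 40.1 TPM, led by Wnt4 at E11.5 (29.1 TPM), and 2 of 4 were higher, with a median of 0.56, and Foxl2 again in E14.5 versus E12.5 as the only later call, at 11.7 TPM in both libraries.

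The order of the 7 genes by TPM changed between libraries. At E11.5, Hand2 led with 13.8 TPM (12.8 to 14.9). Stmn2 at 6.58 (5.83 to 7.4) and Dbh at 6.22 (5.55 to 6.94) could not be separated by counting error, nor could Dbh and Tubb3 at 5.12 (4.43 to 5.89). Sox10 and Phox2a were level at 3.26 and 3.25, and Th was lowest at 1.83 (1.48 to 2.24). Sox10 supplied 8.14% of the summed TPM of the 7.

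At E12.5, Sox10 led with 7.87 TPM (7.08 to 8.72) and 47.6% of the sum. Hand2 followed at 4.61 (3.95 to 5.36), then Tubb3 at 2.12 and Stmn2 at 1.61, whose intervals overlap. Phox2a, Dbh and Th came last with intervals that overlap. At E13.5, Sox10 led again at 7.29 TPM, and Tubb3 (4.67 to 6.29) and Hand2 (4.44 to 5.82) overlapped, as did Stmn2 with Phox2a and Th with Dbh. At E14.5, Tubb3 led at 3.2 TPM (2.72 to 3.75), above Sox10 at 2.14 (1.83 to 2.49) and Hand2 at 1.37 (1.1 to 1.69). Stmn2, Phox2a and Th overlapped there, and Dbh overlapped each of them. The summed TPM of the 7 was 40.1, 16.5, 19.8 and 7.3 from E11.5 to E14.5. Recalculated after rRNA and the 10 features with the highest levels per library were left out, it was 68.8, 26.7, 31.9 and 16.3.

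Genes with the most similar course were found by Euclidean distance between centred log2 CPM profiles over the 4 libraries, among 16373 genes with at least 100 counts in all. Nearest to Phox2a were Insm1 (distance 0.3), 4930412O13Rik (0.48) and Snap91 (0.64). Nearest to Hand2 were Lix1 (0.07), the sodium channel gene Scn8a (0.09) and Slc18a1 (0.12). Insm1 and Slc18a1 are themselves in the neuronal lists. Th was closest to Frmpd4 (0.44), the muscarinic receptor gene Chrm2 (0.45) and Spock3 (0.46). For Dbh the nearest were Tlx2 (0.35), a homeobox gene of crest-derived neurons with 159, 1, 1 and 0 counts, Eya4 (0.48) and Six2 (0.5) of nephron progenitors.

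Profiles near Tubb3 were those of Sgpp2 (0.18), Rassf4 (0.27) and the vesicle gene Syt1 (0.28). Stmn2 lay closest to Foxc1 (0.17), a mesenchymal transcription factor, Cldn7 (0.23), an epithelial claudin, and Rasef (0.25). Sox10 was nearest to Tulp2 (0.02), Ehhadh (0.06) and Tpd52l1 (0.06). Many profiles are possible neighbours over 4 points, and the distances are descriptions. Among the 7, the closest pair was Phox2a and Th (1.03) and the farthest was Dbh and Sox10 (5.42).

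On mm10, the build of the deposited coordinates, Phox2a lies at chr7:101818313-101822726 on the plus strand, Th at chr7:142892776-142931128 on the minus strand and Dbh at chr2:27165507-27183204 on the plus strand. Hand2 lies at chr8:57320983-57324517 and Tubb3 at chr8:123411564-123422010, both on the plus strand. Stmn2 is at chr3:8509527-8561604 on the plus strand and Sox10 at chr15:79154909-79165235 on the minus strand. All 7 are multi-exon genes, from 2 exon blocks in Hand2 to 14 in Th, and counts were taken over exons.

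Features within 1000 bases of a gene were examined because reads of neighbours can be confused where strand use in counting is not given. Phox2a overlaps the end of Inppl1, on the opposite strand, by 95 bases, and Inppl1 had 4032, 4293, 5226 and 2134 counts from E11.5 to E14.5. Whether any of the few Phox2a counts after E11.5 come from Inppl1 was not tested. LOC102636514 starts on the opposite strand, with 96 bases between its start and that of Hand2, and had 110, 24, 8 and 10 counts. It moved by −2.06 (−2.77 to −1.42) in E12.5 versus E11.5, as Hand2 did, and by −1.9 (−3.29 to −0.72) in E13.5 versus E12.5, as Hand2 did not.

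Gm10863 lies 830 bases from Sox10 on the opposite strand and had 4, 39, 37 and 15 counts. Its ratio in E12.5 versus E11.5 was 3.37 (1.94 to 5.36), in the direction of Sox10. Mc1r, 819 bases before Tubb3 on the same strand, had 8, 13, 22 and 4 counts and was not called. Th, Dbh and Stmn2 had no such neighbour, apart from microRNA features that join several loci, which were not used here.

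Promoter sequence is shown for Dbh and Th because they fell together to the lowest levels of the 7 genes. RefSeq promoters on GRCm38.p6 were found for 5 of the 7, and the 250 bases before the start were searched on both strands for ATTA, the core that homeodomain factors such as Phox2a bind, for CANNTG, the E-box of helix-loop-helix factors such as Hand2, and for TGACGTCA, the cyclic AMP response element. Of 32851 promoter windows of this length, 54.9% held ATTA, 66.2% CANNTG and 1.55% TGACGTCA. Capitals mark ATTA, or its reverse complement TAAT, and TGACGTCA in the windows chr2:27165257-27165506 on the plus strand and chr7:142899996-142900245 on the minus strand. The Th window lies inside the deposited Th feature, which begins farther upstream.
Dbh: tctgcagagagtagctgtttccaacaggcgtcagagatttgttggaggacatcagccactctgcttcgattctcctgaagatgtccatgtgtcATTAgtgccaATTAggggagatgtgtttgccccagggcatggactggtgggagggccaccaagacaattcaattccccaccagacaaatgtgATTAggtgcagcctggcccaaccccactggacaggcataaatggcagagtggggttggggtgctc
Th: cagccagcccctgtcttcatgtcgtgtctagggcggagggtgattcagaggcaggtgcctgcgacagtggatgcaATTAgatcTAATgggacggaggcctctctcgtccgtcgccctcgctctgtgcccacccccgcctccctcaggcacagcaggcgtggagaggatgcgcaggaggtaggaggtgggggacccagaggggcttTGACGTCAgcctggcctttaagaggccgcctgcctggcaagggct

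The Dbh window held 3 matches to ATTA, the first beginning 157 bases before the start, 2 to CANNTG and 0 to TGACGTCA. The Th window held 2 matches to ATTA, 1 to CANNTG and 1 to TGACGTCA, which begins 45 bases before the start. Hand2 had 5 matches to ATTA and 2 to CANNTG, whereas Phox2a and Tubb3 had 0 to any of the 3 motifs. A match is a description of the letters and not a binding site, and the absence of one says only that the letters are not in the window.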

How the data were processed

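RNA from pooled embryonic gonads was sequenced by the authors as 1 stranded, rRNA-depleted library per time point. The authors processed the reads with the Bio-Rad SeqSense toolkit, which aligns to mm10 with STAR, removes duplicates with UMI-tools and counts with featureCounts, and deposited a count per gene. The strand setting of the counting is not given in the sources used here. TPM and RPKM were deposited beside the counts, and RPKM was read only to check the files. The 7 genes and the 18 lists were chosen with earlier results of these data known.

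For each of 4 pairs of libraries, genes kept by filterByExpr of edgeR 4.0.16 (R 4.3.3) were scaled by TMM, and log2 ratios were computed with a prior count of 0.125. A gene was called when |log2 ratio| was at least 1 and the exact 95% interval excluded 1-fold. Intervals were computed with scipy 1.17.1 and the calculation was tested on simulated data. No fold was given against 0 counts other than a bound at 3 counts. Named were the 7 genes, neuron and glia list genes passing the rule whose larger count reached 50, the most abundant gene of each list and the 3 genes nearest each of the 7. Genes named outside this rule, such as neighbours on the chromosome, other calls of small lists, calls of the other 8 lists and list genes without a call, were chosen after their values were seen. Some genes that the rule selects are not reported here. Alternatives used DESeq2 1.42.0 size factors, total counts, TPM, other filters, prior counts and thresholds, and edgeR exact tests at preset coefficients of variation.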

Additional observations from a re-analysis of the deposited data

How the results depend on the processing

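No paired analysis was possible because each time point had 1 library and nothing in the labels pairs libraries. Intervals cover counting error only, and variation between pools could not be estimated. The coefficients of variation in the exact tests were assumed. Pools mixed the sexes, the mesonephros was present at E11.5 only, and rRNA took 48.9% of the counts at E14.5, so TPM and total counts lower most other genes there. The E13.5 and E14.5 calls of sparse genes depend on few counts. DESeq2 size factors, TMM without rRNA and a prior count of 2 each moved 0 of the 384 log2 ratios of named genes tried out of their 95% counting interval, although intervals of sparse genes are wide (the log2 ratio of Th, E12.5 versus E11.5, went from −5.33 to −4.48 with a prior count of 2). On the same measure, which can miss a crossing of the 2-fold rule inside the interval, total counts moved 134 and reversed 2, and TPM moved 180 and reversed 14.

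The number of genes changed at least 2-fold, E12.5 versus E11.5, was 3113, with 1247 at 4-fold, 1822 at a coefficient of variation of 0.2 and 286 at 0.4. Scaling moved the split from 1521 higher and 1592 lower to 1858 and 1311 with total counts and to 2170 and 1103 with TPM. Of the 7 genes, 6 passed, 3 with at least 10 counts in both libraries and 3 at a coefficient of 0.4.

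The number of genes changed at least 2-fold, E13.5 versus E12.5, was 748, with 490 at 10 or more counts in both libraries, 151 at 4-fold, and 360, 54 and 1 at coefficients of 0.1, 0.2 and 0.4. The split of 485 higher and 263 lower became 658 and 195 with TPM. Of the 7 genes, 2 passed, 1 with at least 10 counts in both libraries, 0 at 4-fold, and 1, 0 and 0 at the 3 coefficients.

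The number of genes changed at least 2-fold, E14.5 versus E13.5, was 1392, with 11533 for total counts (277 higher, 11256 lower), 16869 for TPM (141 higher, 16728 lower), 438 at 4-fold, and 925, 479 and 31 at the 3 coefficients. Of the 7 genes, 0 passed, against 4 with total counts and 4 with TPM, all lower.

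The number of genes changed at least 2-fold, E14.5 versus E12.5, was 1935, with 10395 for total counts (403 higher, 9992 lower), 15364 for TPM (237 higher, 15127 lower), 621 at 4-fold, and 817 and 72 at coefficients of 0.2 and 0.4. Of the 7 genes, 2 passed, against 4 with total counts (1 higher, 3 lower), 3 with TPM (0 higher, 3 lower), 1 at 4-fold, and 1, 1 and 0 at coefficients of 0.1, 0.2 and 0.4.

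Reversed here means that a gene past the 2-fold rule changed sign, so sign changes of genes that were not called, such as Th and Tubb3 in E14.5 versus E13.5, are not counted. All reversed log2 ratios involve E14.5, where total counts and TPM include the larger rRNA share by construction, and no other cause was tested. With TPM in E14.5 versus E13.5 these were Npy −0.55, Nefm −0.49, Elavl3 −0.12, Syn1 −0.55, Ntrk2 −0.01, Ntrk3 −0.04, Cyp21a1 −0.02, Osr1 −0.61 and S100b −0.44, and with total counts Osr1 −0.05. With TPM in E14.5 versus E12.5 they were Nefh −0.49, Mapt −0.44, Pou4f1 −0.41, Foxl2 −0.01 and Osr1 −0.18, and with total counts Nefh −0.04.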
